A study of Bos taurus with 90 samples.

Results

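ENSBTAG00000000736 and ENSBTAG00000048508 are 2 of the 27270 genes counted in oocytes, cumulus cells (CCs) and mural granulosa cells (MGCs) of bovine antral follicles. They were chosen because earlier results of these data showed both at a much higher level in MGCs of medium than of small follicles, so their MGC levels by stage are given as a description, without a test. The counts list genes by Ensembl identifier alone and nothing used here pairs the identifiers with symbols or positions, so what either gene encodes is not stated here. For the same reason the cell types could not be checked against their marker genes.

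MGCs line the wall of the antral follicle. Under FSH they proliferate and convert androgen from the theca into estradiol, and in a follicle that becomes dominant they gain the receptor for LH. Most antral follicles do not reach that point and regress by atresia, so follicles of one diameter can be at different functional states. CCs are the granulosa cells that surround the oocyte and are coupled to it, and they keep a different expression profile from MGCs under the influence of the oocyte.

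MGCs, the pooled CCs and the single oocyte were taken from the same follicle of ovaries of Bos taurus cows, obtained at a slaughterhouse, and each made 1 library. The methods give no treatment or cycle stage of the cows. Of 30 follicles, 3 that the study removed were left out, together with the CC library of small follicle S70701, which holds counts for only 1066 genes. This left 80 libraries, of 9 small follicles (3.1 to 3.8 mm), 8 medium follicles (6.2 to 7.0 mm) and 10 large follicles (9.6 to 11.6 mm), with 8 CC libraries in the small stage. The labels do not say which follicles share an animal, so the p-values measure the spread between follicles, which may not be independent. MGC libraries were bulk RNA-seq, whereas CC and oocyte cDNA was amplified by the SMART-seq2 protocol, so cell type and library protocol cannot be told apart where MGCs are compared with the others. Total counts were 26739954 to 39266980 in MGCs, 8760201 to 40180192 in CCs and 8442938 to 53173320 in oocytes. Levels are CPM, the count of a gene as its share of the library total, scaled to 1000000. Follicles are named below by a letter for the stage (S, M or L) and the number in their label. Gene lengths were not used, so levels of the 2 genes are not compared with each other.

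In MGCs of small follicles, ENSBTAG00000000736 was low in every library, with a lowest level of 14.4 CPM, a median of 30.6 and a highest of 107.8 (44.2 ± 31.3, mean ± SD, n = 9). In medium follicles the 8 levels were 12.1, 18.1, 18.8 and 21.7 CPM in follicles M70502, M71805, M72104 and M71704, and 365.2, 509.8, 744.2 and 1512 CPM in follicles M62201, M72404, M72403 and M71002. Thus 4 of the 8 medium follicles lay above every small follicle and the other 4 lay within or below the small range, with nothing between 21.7 and 365.2 CPM. The mean of the medium stage, 400.2 ± 528.3 CPM (SD, n = 8), fell between the levels of follicles M62201 and M72404.

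Large follicles were divided in the same manner. ENSBTAG00000000736 was at 18.6 CPM in follicle L71802, 20.4 in L62802, 22.7 in L62803 and 25.5 in L72102. The other 6 large follicles were at 395.3 CPM (L72101), 459.1 (L70503), 684.1 (L70703), 876.2 (L71801), 4850 (L70504) and 9376 (L50505). The highest MGC levels of this gene were therefore in large follicles and not in medium ones, and follicle L50505 was 6.2 times the highest medium follicle. The large stage averaged 1673 ± 3074 CPM (SD, n = 10), with a median of 427.2.

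ENSBTAG00000048508 showed a wider range already in small follicles, from 7.40 CPM in follicle S70501 to 1029 in S50501, with a median of 100.7 (314.6 ± 391.5, mean ± SD, n = 9). In medium follicles it was at 64.7, 74.6, 94.1 and 129.6 CPM in follicles M70502, M71805, M71704 and M72104, and at 3012, 6912, 8000.5 and 15142 CPM in follicles M62201, M72403, M72404 and M71002. In large follicles it was at 85.2 CPM in L71802, 136.4 in L72102, 250.5 in L62803 and 554.1 in L62802. The remaining large follicles were at 2660 CPM (L72101), 5096 (L71801), 5345 (L70503), 8808 (L70703), 22359 (L50505) and 30879 (L70504). The same 4 medium and 6 large follicles were high for both genes, and the same 4 medium and 4 large follicles were low for both.

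In the highest libraries the 2 genes took a visible part of all counts. ENSBTAG00000048508 alone made up 3.09% of the MGC counts of follicle L70504 and 2.24% of those of follicle L50505. In small follicle S70501 both genes together made up 0.0033% of the counts. Since these are bulk libraries, fewer cells expressing a gene and less RNA of it per cell cannot be told apart.

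**Figure D1:**
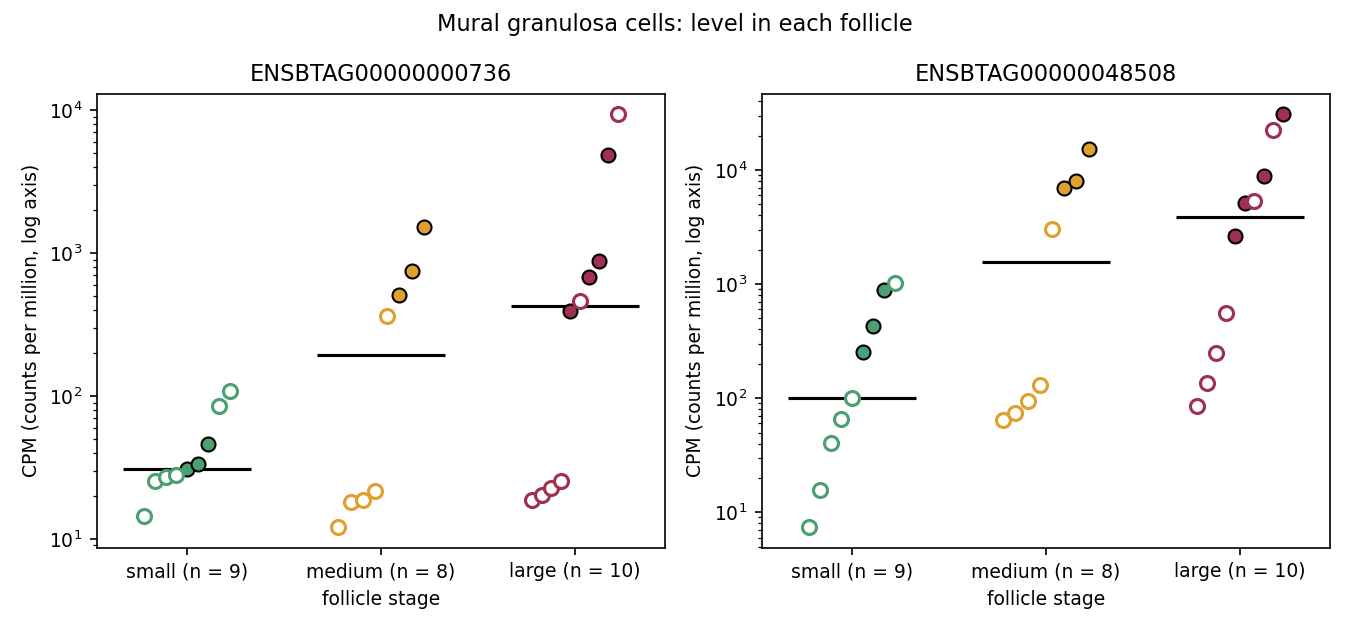
MGC level of each gene (CPM, log axis) by follicle stage, 1 point a follicle, with a line at the stage median. Filled points are the 10 follicles the study kept as healthy. For ENSBTAG00000000736 the medium follicles leave a gap from 21.7 to 365.2 CPM and the large follicles one from 25.5 to 395.3 CPM.

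Fitted across all genes with edgeR, the log2 fold change from small to medium follicles was 3.34 (SE 1.16) for ENSBTAG00000000736 and 3.87 (SE 1.29) for ENSBTAG00000048508. From medium to large follicles it was 2.18 (SE 1.13) and 0.98 (SE 1.17), and from small to large follicles 5.52 (SE 1.27) and 4.85 (SE 1.32). These fitted changes follow the arithmetic mean and so the few very high follicles. Without follicle M71002 the step from small to medium was 2.62 and 3.21. From medium to large it was 1.19 for ENSBTAG00000000736 without L50505 and 0.31 for ENSBTAG00000048508 without L70504, and without M71002 it was 2.90 and 1.64. From small to large it was 4.53 for ENSBTAG00000000736 without L50505 and 4.15 for ENSBTAG00000048508 without L70504. As a difference of mean log2(CPM + 1), the step from small to medium follicles was 1.56 (SE 1.05) for ENSBTAG00000000736 and 2.76 (SE 1.47) for ENSBTAG00000048508. From medium to large it was 1.21 (SE 1.46) and 1.29 (SE 1.56), and from small to large 2.77 (SE 1.10) and 4.05 (SE 1.27).

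The study chose 10 follicles as healthy by transcripts of these same MGC libraries, so the set is not independent of MGC expression. Which follicles they are was read from the sample names in a figure of the study and is not given by the labels. The 3 healthy medium follicles (M72403, M71002 and M72404) and the 4 healthy large follicles (L70703, L72101, L71801 and L70504) were all high for both genes. Medium follicle M62201 and large follicles L70503 and L50505 were also high but were not in that set. Within the set, ENSBTAG00000000736 was at 30.6 to 45.8 CPM in the small, 509.8 to 1512 in the medium and 395.3 to 4850 in the large follicles. ENSBTAG00000048508 was at 252.1 to 891.2, 6912 to 15142 and 2660 to 30879 CPM. In it the medium follicles lay above all small follicles for both genes and overlapped the large ones, with fitted log2 fold changes of 4.58 (SE 0.96) and 4.19 (SE 0.92) from small to medium and 1.05 (SE 0.79) and 0.39 (SE 0.76) from medium to large. As a difference of mean log2(CPM + 1), the latter step was 0.32 for ENSBTAG00000000736 and -0.27 for ENSBTAG00000048508, so that its direction turned for the second gene.

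Follicle numbers carry a prefix of 3 digits whose meaning the labels do not give, and 2 prefixes hold both small and medium follicles. With prefix 705, ENSBTAG00000000736 was at 25.6 CPM in the small and 12.1 in the medium follicle, and with prefix 717 at 27.1 and 21.7. ENSBTAG00000048508 went from 7.40 to 64.7 CPM with prefix 705 and from 15.7 to 94.1 with prefix 717. The 4 high medium follicles have the prefixes 622, 724 and 710, which hold no small follicle, so for them prefix and stage cannot be told apart. Those prefixes hold no large follicle either. Stage changes fitted with the prefix as a covariate thus rest, for the medium stage, on the 4 low follicles. In that fit the log2 fold change from small to medium follicles was 0.84 (SE 1.24) for ENSBTAG00000000736 and 2.49 (SE 1.64) for ENSBTAG00000048508.

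Large follicles shared 3 prefixes with small and 3 with medium follicles. With prefix 505, ENSBTAG00000000736 was at 14.4 to 107.8 CPM in small follicles and at 9376 in the large one. With prefix 705, ENSBTAG00000000736 was at 459.1 and 4850 CPM in 2 large follicles, and with prefix 707 it went from 27.9 CPM in the small to 684.1 in the large follicle. With prefix 718 the medium follicle was at 18.1 CPM and the large ones at 18.6 and 876.2, and with prefix 721 the medium follicle was at 18.8 and the large ones at 25.5 and 395.3. With the prefix as a covariate, the log2 fold change from small to large follicles was 6.18 (SE 1.11) for ENSBTAG00000000736 and 7.64 (SE 1.45) for ENSBTAG00000048508.

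In medium and large follicles both genes varied more than most others. The genes were chosen on MGCs of small and medium follicles, so their ranks there are not independent of the choice and are a description. Among 12906 genes with a mean of at least 1 CPM in MGCs, the SD of log2(CPM + 1) in medium follicles was 2.85 for ENSBTAG00000000736 and 3.45 for ENSBTAG00000048508, against a median of 0.48 over all these genes, and 19 and 7 genes had a larger SD. In large follicles the SDs were 3.34 and 3.06, exceeded by 4 and 8 genes. In small follicles ENSBTAG00000048508 still varied widely (SD 2.46, exceeded by 7 genes), whereas ENSBTAG00000000736 did not (SD 0.88, exceeded by 2525 genes).

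Across the 27 MGC libraries the 2 genes correlated with r = 0.89 on log2(CPM + 1). Of these, the medium and large follicles were on the same side of the widest step of their stage for both genes. Of the small follicles, 2 were above and 2 below that step for both genes, and the remaining ones changed sides. By the rule used, the step did not separate the levels of either gene in small follicles or those of ENSBTAG00000048508 in large follicles. The genes most like ENSBTAG00000000736 reached r = 0.96, 0.94, 0.94, 0.94 and 0.94, and ENSBTAG00000048508 ranked 14th among 12905 genes. Those most like ENSBTAG00000048508 reached r = 0.94, 0.94, 0.94, 0.94 and 0.93, and ENSBTAG00000000736 ranked 19th. Both genes were chosen for a higher level in medium than in small MGCs, so a positive r over the stages follows in part from that choice. The points also share their libraries and depth, and the values are a description. A profile with r of at least 0.9 was found in 12 genes for ENSBTAG00000000736 and in 16 for ENSBTAG00000048508, and the 8 that both lists held were 66.7% of the first and 50.0% of the second. In the opposite direction, 4 and 11 genes had an r of -0.9 or below.

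The ratio between the 2 counts in a library was not fixed. In MGCs, counts of ENSBTAG00000048508 divided by those of ENSBTAG00000000736 ranged from 0.29 to 19.4 in small follicles, from 4.12 to 15.7 in medium follicles and from 2.38 to 27.2 in large follicles. In CCs the ratio was higher at its median, 29.8 (small), 14.96 (medium) and 27.7 (large follicles), against 4.58, 7.58 and 6.55 in MGCs.

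CC libraries did not enter the choice of the genes. ENSBTAG00000000736 was at 3.39 to 52.3 CPM in CCs of small follicles (29.4 ± 17.5, mean ± SD, n = 8), at 14.4 to 349.7 CPM in medium follicles (88.7 ± 109.2, n = 8) and at 23.1 to 195.4 CPM in large follicles (89.7 ± 61.8, n = 10). ENSBTAG00000048508 was at 293.3 to 1496 CPM (952.0 ± 459.5), at 64.4 to 9701 CPM (1958 ± 3247) and at 579.2 to 9986 CPM (3158 ± 3032). The stages overlapped for both genes. Medium follicle M72403 held the highest medium CC level of both, and without it ENSBTAG00000000736 reached 89.6 CPM and ENSBTAG00000048508 2547 CPM in the medium stage.

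Neither gene passed the test between stages in CCs, where a call needs a fold above 2 and an adjusted p below 0.05 (edgeR's quasi-likelihood test, Benjamini-Hochberg over all genes). From small to medium follicles the log2 fold change was 1.52 (SE 0.52, adjusted p = 0.30) for ENSBTAG00000000736 and 0.67 (SE 0.73, adjusted p = 0.79) for ENSBTAG00000048508. Without follicle M72403 it was 0.76 (SE 0.45, adjusted p = 0.61) and -0.49 (SE 0.66, adjusted p = 0.89). In that contrast 0% of 15106 genes were called by edgeR, with 1378 at an unadjusted p below 0.05 and a fold above 2, and DESeq2 called 37 genes. From medium to large follicles the values were 0.02 (SE 0.48, adjusted p = 0.999) and 0.73 (SE 0.70, adjusted p = 0.85), with 0% of all genes called by edgeR, 681 at that unadjusted limit and 18 called by DESeq2. Without follicle M72403 they were 0.78 (SE 0.43, adjusted p = 0.59) and 1.89 (SE 0.67, adjusted p = 0.43). From small to large follicles they were 1.54 (SE 0.50, adjusted p = 0.074) and 1.39 (SE 0.72, adjusted p = 0.24), with 3.34% of all genes called.

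Other settings moved ENSBTAG00000000736 past the threshold from small to large CCs. DESeq2 gave an adjusted p of 0.024, and edgeR gave 0.039 without the CC library of medium follicle M72403. Without that library the log2 fold change stayed at 1.54 and its SE was 0.43. DESeq2 called 1353 of 15106 genes in this contrast, and edgeR without that library called 607 of 15103. Over the alternatives of that contrast other than leaving out a follicle, the adjusted p of ENSBTAG00000000736 ranged from 0.024 to 0.66. With the prefix as a covariate the step from small to medium CCs changed its direction to -0.40 (SE 0.79) for ENSBTAG00000000736 and -2.62 (SE 0.97) for ENSBTAG00000048508, with adjusted p of 0.89 and 0.45. Follicles M62201, M72403, M72404 and M71002 do not inform stage changes in this fit, since their prefixes hold no other stage. The step from medium to large CCs was then 1.18 (SE 0.65, adjusted p = 1) and 3.05 (SE 0.73, adjusted p = 0.56), and that from small to large CCs 0.79 (SE 0.71) and 0.42 (SE 0.81). Within prefix 705 ENSBTAG00000048508 was at 512.7 CPM in the small and 64.4 in the medium CCs, and within prefix 717 at 979.6 and 96.8.

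**Figure D2:**
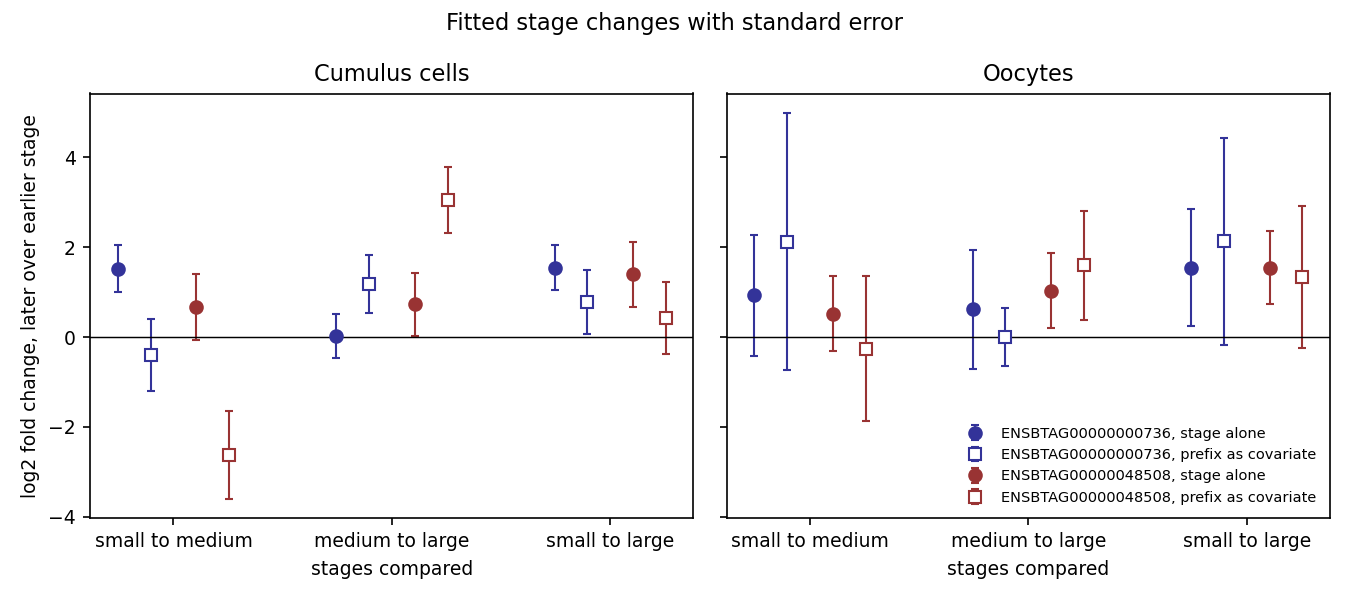
Fitted log2 fold change between stages in CCs and oocytes with its standard error, by edgeR. Filled circles are the fit on stage alone and open squares the fit with the prefix as a covariate, and from small to medium CCs the squares lie below 0 (-0.40 and -2.62) where the circles lie above it (1.52 and 0.67).

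In oocytes ENSBTAG00000000736 was close to the limit of detection. It had no count in 6 of 9 small, 1 of 8 medium and 3 of 10 large oocytes, and its highest oocyte level was 1.24 CPM, from 42 counts in large follicle L72101. A count of 0 allowed a level of up to 0.056 to 0.13 CPM in these 6 small oocytes, taking 3 counts as the limit, which covers counting error only. ENSBTAG00000048508 was detected at a low level, at 0 to 7.81 CPM in small (3.07 ± 2.73, mean ± SD, n = 9), 0.27 to 10.99 CPM in medium (4.84 ± 4.06, n = 8) and 0.69 to 32.5 CPM in large oocytes (9.62 ± 11.6, n = 10). The stages overlapped for both genes.

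No stage change in oocytes passed the test. For ENSBTAG00000048508 the log2 fold change was 0.52 (SE 0.84, adjusted p = 0.86) from small to medium, 1.03 (SE 0.83, adjusted p = 1) from medium to large and 1.55 (SE 0.82, adjusted p = 0.29) from small to large follicles. For ENSBTAG00000000736 it was 0.93 (SE 1.35, adjusted p = 0.84), 0.61 (SE 1.32, adjusted p = 1) and 1.54 (SE 1.30, adjusted p = 0.57). By edgeR these contrasts called 0.0737%, 0% and 1.51% of 14934 genes. For the medium to large step, 367 genes had an unadjusted p below 0.05 with a fold above 2, and DESeq2 called 0 genes.

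The stage change in CCs minus that in oocytes was also not called. From small to large follicles it was -0.20 (SE 0.87, adjusted p = 0.98, edgeR) for ENSBTAG00000000736 and -0.018 (SE 0.98, adjusted p = 0.99998) for ENSBTAG00000048508. The 3 contrasts called 0.0529% (small to medium), 0.0727% (medium to large) and 0.648% (small to large) of all genes. This test of the difference was added after the data were seen.

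**Figure D3:**
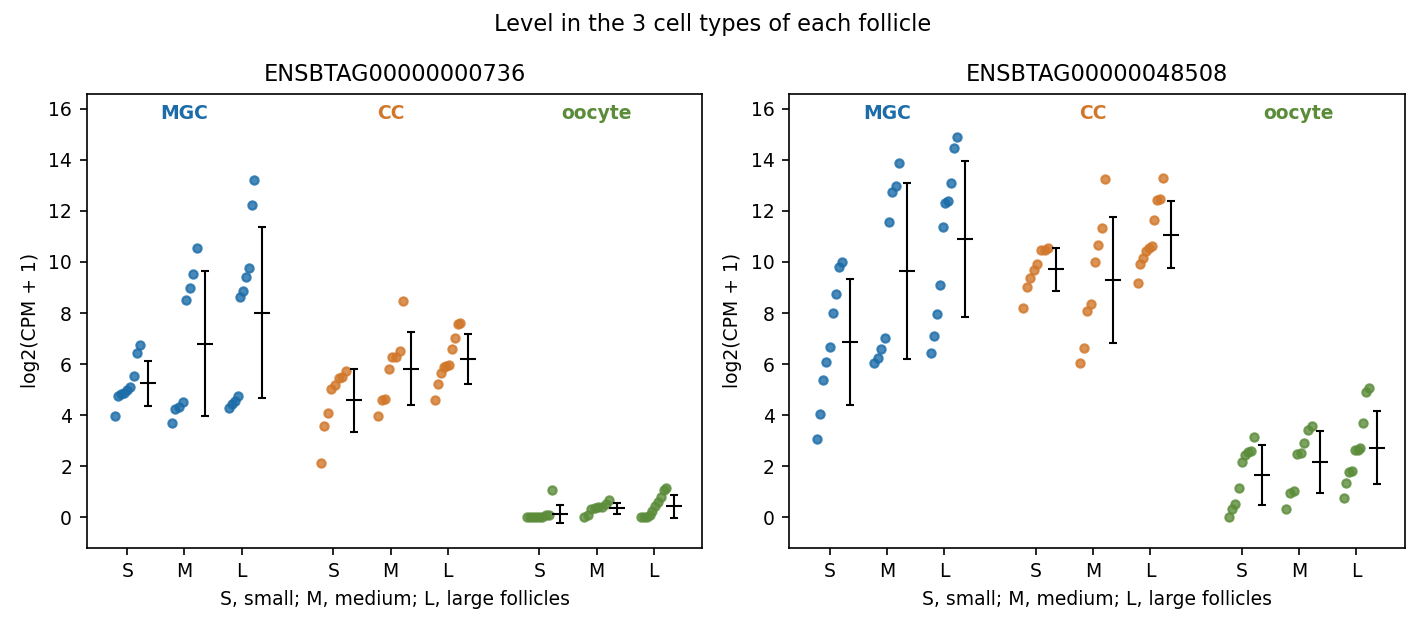
Level of each gene as log2(CPM + 1) in MGCs, CCs and oocytes by stage, 1 point a library, with the mean and SD beside each group. All CC points lie above all oocyte points for both genes, and in large follicles MGC points lie both below and above the CC points.

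Both genes were higher in CCs than in the oocyte of every follicle with both libraries (8 of 8 small, 8 of 8 medium and 10 of 10 large). The lowest CC level of ENSBTAG00000000736 in any stage, 3.39 CPM, lay above its highest oocyte level, 1.24 CPM, and for ENSBTAG00000048508 the lowest CC level of 64.4 CPM lay above the highest oocyte level of 32.5 CPM. For ENSBTAG00000000736 the log2 fold change was 8.32 (SE 0.98, adjusted p = 1.35e-10, edgeR) in small, 8.80 (SE 1.03, adjusted p = 1.52e-10) in medium and 8.12 (SE 0.89, adjusted p = 1.29e-11) in large follicles. For ENSBTAG00000048508 it was 8.83 (SE 1.06, adjusted p = 2.17e-10), 9.04 (SE 1.12, adjusted p = 7.34e-10) and 8.81 (SE 0.99, adjusted p = 3.43e-11). Both genes were thus called in each stage, as were 65.9%, 64.6% and 67.7% of all genes tested, in either direction. In MGCs of large follicles both were also higher than in oocytes, by log2 fold changes of 12.5 (SE 1.41, adjusted p = 2.87e-11) and 10.3 (SE 1.40, adjusted p = 4.11e-09), where 72% of all genes were called.

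MGCs and CCs of the same follicle did not keep one order. In large follicles ENSBTAG00000000736 was higher in MGCs in 6 of 10 follicles and ENSBTAG00000048508 in 5 of 10. In follicle L50505 ENSBTAG00000000736 was at 9376 CPM in MGCs, the highest of the stage, and at 23.1 CPM in CCs, the lowest of the stage. In follicle L62803 ENSBTAG00000048508 was at 250.5 CPM in MGCs and at 5554 CPM in CCs.

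Across large follicles the log2 fold change of MGCs over CCs was 4.33 (SE 0.91, adjusted p = 6.44e-05, edgeR) for ENSBTAG00000000736, a call shared by 47.6% of all genes. With the follicle as a replicate block it was 1.24 (SE 0.88, adjusted p = 0.24), which ended the call. The difference per follicle averaged 1.81 on log2(CPM + 1) with an SD of 3.54 (n = 10) and ran from -2.30 in follicle L71802 to 8.60 in L50505. For ENSBTAG00000048508 the log2 fold change was 1.32 (SE 0.93, adjusted p = 0.22) and with the block -0.35 (SE 0.92, adjusted p = 0.77).

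In small follicles ENSBTAG00000048508 was lower in MGCs than in CCs in 8 of 8 follicles, by a median of 2.35 on the log2(CPM + 1) scale, and in 4 of 8 medium follicles. Small follicle S70501 stood at 7.40 CPM in MGCs and 512.7 in CCs, and small follicle S50501 at 1029 and 1423. ENSBTAG00000000736 was higher in MGCs in 5 of 8 small and 5 of 8 medium follicles. Since the genes were chosen on MGCs of these stages, these differences were not tested.

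**Figure D4:**
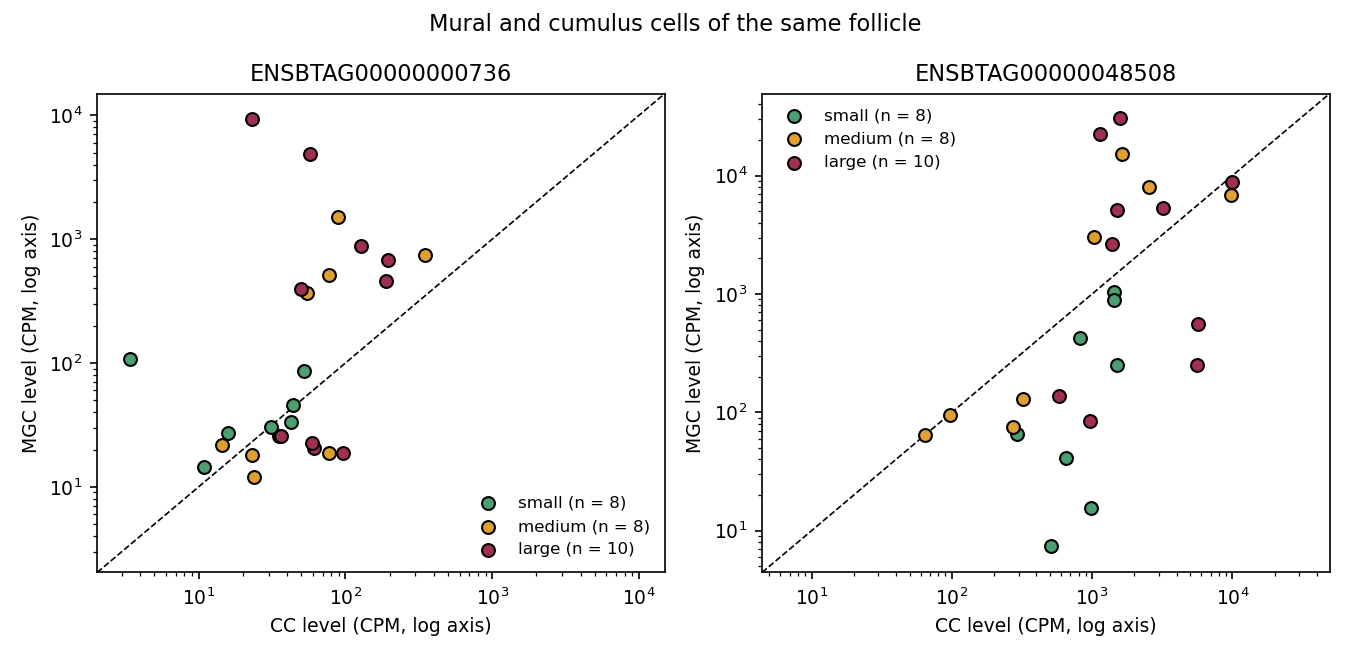
MGC level against CC level of the same follicle (CPM, both axes log), 1 point a follicle, with the line of equal levels dashed. For ENSBTAG00000048508 all 8 small follicles lie below the line, and large follicles lie on both sides of it for both genes.

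Whether follicles that are high in one cell type are high in another was asked within a stage. Of 18 relations between cell types, 8 could be computed, since counts were too sparse in 6 and follicles fell into separate clusters in 4. No Pearson r passed the adjustment. The closest was ENSBTAG00000048508 in CCs and oocytes of small follicles (r = 0.84, exact permutation p = 0.010, adjusted p = 0.082, n = 8, two-sided), with rho = 0.90 (exact p = 0.0046, adjusted p = 0.037). On TMM totals r was 0.73 (exact permutation p = 0.044, adjusted p = 0.26) and rho 0.64 (exact p = 0.096, adjusted p = 0.39), so the rank relation no longer passed. Without the 2 follicles farthest from the median r was 0.44. Prefixes hold too few follicles of a stage for values within them.

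Of 9 relations between the 2 genes in one cell type, 5 could be computed. In the 6 large follicles with high MGC levels r was 0.91 (exact permutation p = 0.022, adjusted p = 0.087) and rho 0.77 (exact p = 0.10, adjusted p = 0.13). Among the 7 medium CCs other than follicle M72403 r was 0.83 (exact permutation p = 0.035, adjusted p = 0.087) and rho 0.82 (exact p = 0.034, adjusted p = 0.12). In CCs of small follicles r was 0.018 (exact permutation p = 0.97, adjusted p = 0.97, n = 8). Without the 2 farthest follicles these values were 0.61, 0.83 and 0.014.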

How the data were processed

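RNA-seq counts of MGCs, CCs and oocytes from 30 bovine antral follicles were used. Per the labels and the study's methods, the authors trimmed and aligned paired-end reads to ARS-UCD1.2 and counted them per gene with featureCounts. The methods name STAR and the submitters' processing notes HISAT2 2.2.1, and which made the deposited counts was not settled. The deposited values are counts without normalization. In each library 54.9% to 76.7% of low counts (from 1 to 20) were even numbers, and whether reads or read pairs were counted was not settled.

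The genes tested had more than 1 CPM in 15 or more of the libraries used from some cell type (15131 genes, both members among them), less those without a count in the libraries of a fit. edgeR 4.0.16 in R 4.3.3 was used with TMM, glmQLFit and glmQLFTest, in one fit over the stages of a cell type, or over the groups of the cell types compared, with Benjamini-Hochberg adjustment over all genes tested. SEs are the log2 fold change divided by the root of F. DESeq2 1.42.0 was an alternative, with its size factors, no filter, filterByExpr, all 30 follicles, the 10 healthy follicles, the prefix as a covariate, the follicle as a block, other pseudocounts than 1 and leaving out each follicle. The setting with all 30 follicles also took back the CC library of S70701. CC and oocyte stage fits, and those of CCs against oocytes and of MGCs against CCs in large follicles, were tested on simulated counts. The MGC stage fits and those with the prefix or the block were not. Correlations used exact pairings below 10 follicles and 100000 resamples otherwise (Python 3.11.15, scipy 1.17.1), and follicles were called separate where a step exceeded 0.4 of the log2 range, a rule set after the data were seen. Sparse means a median below 10 counts.

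The members and lists were chosen with earlier results of these data known. Identifiers were not paired with symbols, so marker and gene lists were not run, and the 5 genes most like each member are given by r alone. The numbers pair libraries of one follicle, per the study's design. Deviations from the group means of libraries of a follicle correlated across genes with a median r of 0.06 (CCs with MGCs), 0.00095 (oocytes with MGCs) and 0.095 (oocytes with CCs).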

Additional observations from a re-analysis of the deposited data

Results flagged for a closer look

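Of 18 groups of libraries looked at, 4 had a highest value that stood apart from the rest by Dixon's test on CPM. Its limits assume normal values. CPM was strongly skewed here, so the usual rate of about 1 of 20 groups by chance does not hold. As log2(CPM + 1), the widest step was 0.43 (ENSBTAG00000000736) and 0.27 (ENSBTAG00000048508) of the range in medium CCs, against a limit of 0.526. For ENSBTAG00000000736 it was 0.44 in large MGCs (limit 0.466), below the high follicles, and 0.92 in small oocytes (limit 0.493). Of the 4 groups, only the small oocytes passed on that scale. The CCs of medium follicle M72403 stood apart for both genes, at 349.7 CPM for ENSBTAG00000000736 and 9701 CPM for ENSBTAG00000048508. MGCs of the same follicle were at 744.2 and 6912 CPM, both among the 3 highest of the medium stage. The MGCs of large follicle L50505 stood apart for ENSBTAG00000000736 at 9376 CPM, and leaving this follicle out lowered the fitted log2 fold change from small to large MGCs from 5.52 to 4.53. The oocyte of small follicle S50506 stood apart for ENSBTAG00000000736 at 1.07 CPM, from 22 counts, and without it the log2 fold change from small to large oocytes was 4.49 in place of 1.54, since the other small oocytes hold at most 2 counts each. It was not called with or without this oocyte. Over fits that left out single follicles, its adjusted p ranged from 0.051 to 0.69 (edgeR's quasi-likelihood test).

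The 3 follicles that the study removed held counts of both genes above the limit of 3 counts. Their highest MGC levels, in medium follicle M71001, were 37.1 CPM for ENSBTAG00000000736 and 112.9 for ENSBTAG00000048508, closer to the low than to the high medium follicles, although medium follicle M71002 has the same prefix and the highest medium levels. Their highest CC levels, in medium follicle M71804, were 101.9 and 2578 CPM, while its MGCs were at 30.3 and 48.0 CPM. Their highest oocyte levels, in small follicle S70702, were 1.17 and 12.8 CPM, both above every retained small oocyte.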

How the results depend on the processing

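The call of both genes as higher in CCs than in oocytes held in each stage under all alternatives run, as did that of MGCs over oocytes in large follicles. The cause of the changes below was not tested. With the prefix as a covariate, the 4 medium follicles with high MGC levels do not inform stage changes, since their prefixes hold no other stage. In that fit the log2 fold change from medium to large MGCs rose to 5.34 for ENSBTAG00000000736 and 5.15 for ENSBTAG00000048508. The step from small to medium CCs turned to -0.40 and -2.62, and that in oocytes turned to -0.26 for ENSBTAG00000048508. With the 10 healthy follicles, the difference of mean log2(CPM + 1) from small to medium MGCs was 4.49 for ENSBTAG00000000736, and the step from medium to large CCs turned to -0.60 and -0.26. With all 30 follicles the step from small to medium oocytes turned to -0.14 for ENSBTAG00000000736. DESeq2 called ENSBTAG00000000736 from small to large CCs (log2 fold change 1.57, adjusted p = 0.024). With the replicate block, MGCs over CCs in large follicles fell to 1.24 for ENSBTAG00000000736 and turned to -0.35 for ENSBTAG00000048508. The CC minus oocyte stage change with the block turned to -1.48 and -0.91 from small to medium and to 0.28 and 0.80 from medium to large follicles, with no call for either gene, and the block changed no other call of the 2 genes. Leaving out single follicles gave 0.76 to 1.72 for ENSBTAG00000000736 and -0.49 to 1.03 for ENSBTAG00000048508 from small to medium CCs, -0.20 to 0.78 for ENSBTAG00000000736 from medium to large CCs, and 1.32 to 1.76 for it from small to large CCs, lowest without follicle L70703. For ENSBTAG00000048508 it gave 0.31 to 1.89 from medium to large and 0.98 to 1.74 from small to large CCs. Among correlations of MGCs with CCs, ENSBTAG00000000736 in small follicles went from -0.13 to 0.20 on TMM totals and to 0.84 without the 2 farthest follicles. In large follicles it was computed only over the 6 with high MGC levels, and went from -0.70 to 0.49 without the 2 farthest (n = 4). The correlation of MGCs with CCs for ENSBTAG00000048508 in all 10 large follicles went from 0.15 to -0.51 without the 2 farthest. That of the 2 genes in small CCs went from 0.018 to -0.16 on TMM totals. The rho that passed for ENSBTAG00000048508 in small CCs and oocytes (0.90) was 0.64 on TMM totals. Over the settings other than leaving out single follicles, counts of called genes ranged from 0 to 37 (edgeR on stage alone 0) from small to medium and 0 to 18 (0) from medium to large CCs, 4 to 1353 (505) from small to large CCs, 0 to 39 (11) from small to medium and 0 to 257 (225) from small to large oocytes, and for the CC minus oocyte change from 8, 11 and 98 to 0 in each contrast with the block, in the order small to medium, medium to large and small to large. The lowest count from small to large CCs, 4, came with all 30 follicles, a setting that also holds the CC library of S70701. Leaving out single follicles gave 0 to 830 genes from small to large CCs (0 without S50501, S71701, L62802, L62803 or L71801), 0 to 122 from small to medium and 97 to 465 from small to large oocytes (highest without S70701 in both). DESeq2 gave no adjusted p for either gene in oocytes from small to medium or small to large. In oocytes 10 of 27 libraries hold no count of ENSBTAG00000000736. These include the deepest, of follicle S50501, whereas the shallowest, of follicle M71704, holds 5 counts.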
